A study of Homo sapiens with 6 samples.

Results

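MHC class II genes and the invariant chain were followed in 6 RNA sequencing libraries of MDA-MB-231, an established line of human breast cancer cells without estrogen or progesterone receptors or HER2 amplification. Cells of 3 libraries carried a transfected vector for overexpression of DNAJC12, a J-domain co-chaperone, and cells of the remaining 3 the empty vector. The members were the 10 rows of the deposited count table, among 58735 genes, whose symbol was CD74, HLA-DRA, HLA-DRB1, HLA-DPA1, HLA-DPB1, HLA-DMA, HLA-DMB, HLA-DQA1, CIITA or CTSS. The labels do not say whether separate cultures were used within a group, or whether the transfected cells were pooled or cloned, so p-values measure only the spread between these libraries, which may be technical.

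Class II molecules are pairs of an alpha and a beta chain that show peptides from endosomes to CD4+ T cells. The invariant chain, encoded by CD74, holds the new pair until proteases such as cathepsin S trim it to a short remnant, and HLA-DM then exchanges that remnant for a peptide. Transcription of these genes depends on CIITA, a coactivator that is itself recruited by factors sitting on a shared promoter module of an X box and a Y box. Professional antigen-presenting cells make class II constitutively, and many other cells, tumor cells among them, make it after interferon gamma.

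CD74 and the chains HLA-DRA, HLA-DRB1, HLA-DPA1, HLA-DPB1 and HLA-DMB had fitted levels with DNAJC12 that were 1.66 to 1.87 times those with the empty vector. HLA-DMA and CIITA had 1.27 and 1.24 times and CTSS 0.892 times. No member passed the test across all genes. Of the 9 members with enough counts to be tested, 0 reached an adjusted p below 0.05 by edgeR (quasi-likelihood, Benjamini-Hochberg adjustment), against 1.25% of the 14520 genes tested (0.585% higher and 0.661% lower with DNAJC12). HLA-DRA, HLA-DPA1, HLA-DPB1, HLA-DMB and CD74 showed no overlap, with each overexpression library above the highest one of the empty vector, which 9.26% of tested genes did. These 5 also had an unadjusted p under 0.05 and a positive fold change, as did 7.25% of tested genes. The DESeq2 Wald test called 2 members higher, as it did 1.99% of genes, and limma on FPKM called 0. The median log2 fold change, overexpression over empty vector, was 0.73 over the 9 tested members and 0.05 over all tested genes.

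The promoter module is shown for the members whose RefSeq promoter entry matched its X box, with HLA-DQA1 beside them, since it is the sequence these genes are known to share. Of the 10 members, 7 had an entry (GRCh38.p14). The 250 bases before each start site were searched on both strands for AGNNAC followed at once by NGATG, the core of an X box, and for ATTGG, the core of a Y box, which reads CCAAT on the other strand. The letters were chosen with these sequences in view. The X core was found in 3 members and in 0.692% of 35116 promoters, and the Y core in 32.0% of promoters. Each line below gives 80 bases, 5′ to 3′ on the gene's strand, all on the minus strand of chromosome 6 except HLA-DQA1, on the plus strand, with cores in capitals.
HLA-DRB1, chr6:32589868-32589947: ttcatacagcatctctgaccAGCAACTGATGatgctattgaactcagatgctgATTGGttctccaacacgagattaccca
HLA-DMA, chr6:32953151-32953230: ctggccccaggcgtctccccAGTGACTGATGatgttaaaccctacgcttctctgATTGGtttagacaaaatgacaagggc
HLA-DMB, chr6:32941057-32941136: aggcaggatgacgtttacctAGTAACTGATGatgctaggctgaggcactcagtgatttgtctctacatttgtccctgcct
HLA-DQA1, chr6:32637285-32637364: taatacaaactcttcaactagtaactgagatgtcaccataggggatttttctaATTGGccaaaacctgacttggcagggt

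The X core began 79 bases before the start site in HLA-DRB1, 113 in HLA-DMA and 88 in HLA-DMB. In HLA-DRB1 and HLA-DMA a Y core followed it after 33 and 34 bases, counted from start to start. HLA-DMB had a Y core that reads CCAAT 22 bases before the start site, outside the window shown. An X core followed by a Y core within 50 bases was held by 9 of the 35116 promoters, 0.0256%. Besides HLA-DRB1 and HLA-DMA, they were those of HLA-DRB5, HLA-DQB1, the class I-like gene MR1, HIF1A, HMGB4 and 2 loci without a gene name. HLA-DQA1 is shown as the member that was almost unread, and its window has a Y core without a match to the X letters. That window holds agtaactgagatg, close to the AGTAACTGATG of HLA-DMB, so a missing match does not show that an X box is absent. The promoter entries of CD74, the most abundant member, and HLA-DPB1 also had a Y core without a match to the X letters. HLA-DPA1 had entries at 33073650-33073899 and 33080749-33080998, the latter inside HLA-DPB1, and neither entry matched either core. A match describes letters in a window and says nothing of binding in these cells.

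DNAJC12 itself had 522, 523 and 492 counts in the overexpression libraries and 1, 0 and 0 with the empty vector, in accord with the labels. Libraries held 17967283 to 18887497 counts. Weighted by counts, GC content was 50.8, 53.4 and 51.7% with DNAJC12 (replicates 1 to 3), against 51.4, 52.8 and 52.3% in libraries of the empty vector, highest in overexpression replicate 2 and lowest in overexpression replicate 1. The mesenchymal and cytokeratin markers of the line were abundant, with KRT8 at 1398, 2857 and 1772 CPM in overexpression and 1541, 1763 and 1556 CPM in empty vector libraries and AXL between 1337 and 2384 CPM over all 6. ERBB2 lay between 61.4 and 121 CPM, EPCAM between 4.32 and 12.4, and ESR1 had 0 to 2 counts a library. In bulk samples, fewer cells of a type and less RNA per cell cannot be told apart.

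CD74 was the most abundant member. The gene (ENSG00000019582, GRCh38 chromosome 5, 150401637 to 150412929, minus strand) was read with 8015, 11355 and 10013 counts with DNAJC12 and 5915, 6136 and 5067 counts with the empty vector. Scaled by library size as CPM with TMM normalization, these were 402, 718 and 523 CPM in overexpression replicates 1 to 3, against 317, 341 and 270 CPM in empty vector replicates 1 to 3. The groups did not overlap, and overexpression replicate 2 was the highest library. The log2 fold change was 0.82 ± 0.24 SE, a 1.77-fold difference, with an adjusted p of 0.163 in the edgeR test. Without overexpression replicate 1 it was 0.99 (adjusted p = 0.0355), and without replicate 2 it was 0.58 (adjusted p = 0.0212), so CD74 passed in both of these fits. Of all tested genes, 0.95% were called higher without replicate 1 and 12.1% without replicate 2.

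**Figure D1:**
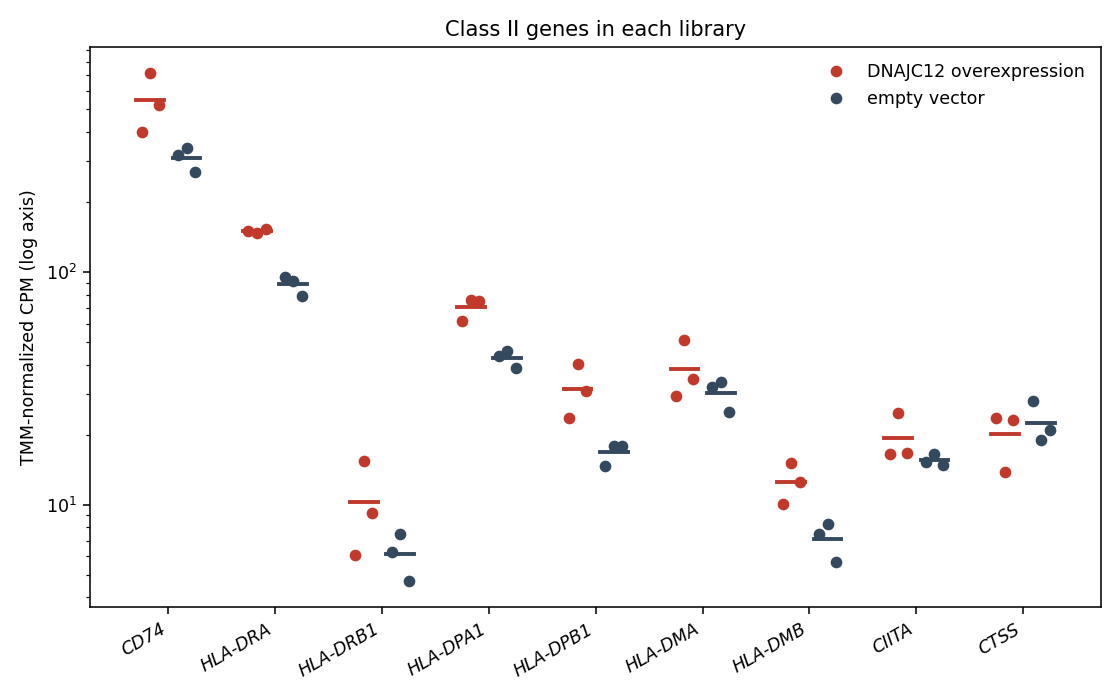
CPM with TMM normalization of the 9 tested members, on a log axis, in each overexpression (red) and empty vector (blue) library, replicates 1 to 3 from left to right, with group means as lines. HLA-DRA shows the least spread with DNAJC12 (147 to 153 CPM), while CD74 runs from 402 to 718 CPM there.

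The alpha and beta chains of HLA-DR differed in level and in spread. HLA-DRA, the nearly monomorphic alpha chain of DR (chromosome 6, 32439842 to 32445046, plus strand), had 151, 147 and 153 CPM with DNAJC12 and 94.8, 92.0 and 78.9 CPM with the empty vector. The overexpression libraries lay within a few CPM of each other and apart from all 3 empty vector libraries. The log2 fold change was 0.76 ± 0.19 SE, with an adjusted p of 0.0920 in the edgeR test, the smallest among the members. It was 0.78 without overexpression replicate 2, with an adjusted p of 0.00330.

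HLA-DRB1, the polymorphic beta chain (32578769 to 32589848, minus strand), had 122, 244 and 176 counts with DNAJC12 and 117, 134 and 88 counts with the empty vector. At 6.11, 15.4 and 9.19 CPM against 6.28, 7.45 and 4.69 CPM the groups overlapped, since overexpression replicate 1 lay below empty vector replicates 1 and 2. The log2 fold change was 0.73 ± 0.37 SE (adjusted p = 0.419, edgeR), and 0.32 without overexpression replicate 2. Near-identical DRB copies and differences between alleles and the reference make DRB counts uncertain. HLA-DRB5, the next DR beta gene, had 1.90, 3.35 and 3.50 CPM with DNAJC12 and 3.49, 1.34 and 1.39 CPM with the empty vector. The count of HLA-DRA was 24.7, 9.55 and 16.7 times that of HLA-DRB1 in overexpression libraries and 15.1, 12.3 and 16.8 times in empty vector libraries.

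Both HLA-DP chains, which lie head to head on chromosome 6 with 96 exon bases in common on opposite strands, were higher in every library with DNAJC12. HLA-DPA1, the alpha chain (33064569 to 33080775, minus strand), had 61.6, 75.9 and 75.2 CPM with DNAJC12 and 43.5, 45.8 and 38.6 CPM with the empty vector. Its log2 fold change was 0.73 ± 0.20 SE (adjusted p = 0.125, edgeR). HLA-DPB1, the beta chain (33075926 to 33087201, plus strand), had 23.6, 40.1 and 30.9 CPM with DNAJC12 and 14.7, 17.97 and 17.96 CPM with the empty vector. Its log2 fold change, 0.90 ± 0.26 SE or 1.87-fold, was the largest among the members (adjusted p = 0.147, edgeR). Both were called without overexpression replicate 2, at adjusted p of 0.0109 for HLA-DPA1 and 0.0276 for HLA-DPB1.

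HLA-DQA1, the alpha chain of DQ, was not detectable at this depth. It had 2 counts in overexpression replicate 1 and 0 in the other 5 libraries, where a count of 0 allows up to 3 counts, or 0.150 to 0.190 CPM a library, by counting error alone. No fold change is given. Its partner HLA-DQB1 had 0 to 5 counts a library. Whether differences between alleles and the reference lowered the counts of either DQ gene was not tested.

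The chains of the peptide exchange factor HLA-DM had unlike fold changes. HLA-DMB, its beta chain (32934629 to 32941070, minus strand) had 10.1, 15.05 and 12.5 CPM with DNAJC12 and 7.46, 8.23 and 5.70 CPM with the empty vector. The groups did not overlap, and the log2 fold change was 0.82 ± 0.28 SE (adjusted p = 0.219, edgeR). HLA-DMA, the alpha chain (32948613 to 32969094, minus strand) had 29.5, 51.1 and 34.8 CPM with DNAJC12 and 32.1, 33.8 and 25.1 CPM with the empty vector. Its groups overlapped, with a log2 fold change of 0.34 ± 0.26 SE (adjusted p = 0.615, edgeR) and 0.08 without overexpression replicate 2. The ratio of HLA-DMA to HLA-DMB counts within a library was 2.91, 3.39 and 2.77 with DNAJC12 and 4.31, 4.10 and 4.402 with the empty vector. These ratios did not overlap, and an exact two-sided permutation test gave p = 0.1, the smallest that 3 against 3 libraries allow, and 0.167 adjusted over 10 such ratios. A readthrough gene shares 438 exon bases of HLA-DMB and 174 of HLA-DMA, and it had 0 counts. HLA-DMA also shares 55 exon bases with BRD2 on the opposite strand. Whether reads in these shared exons were left out of the counts was not tested.

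HLA-DOA, the alpha chain of the HLA-DM inhibitor HLA-DO and no member, had 11.8, 14.2 and 12.0 CPM with DNAJC12 and 5.90, 6.01 and 4.796 CPM with the empty vector. Its log2 fold change of 1.18 ± 0.26 SE missed the threshold (adjusted p = 0.0617, edgeR), and it was called without overexpression replicate 2 (adjusted p = 0.00657). HLA-DOB, the beta chain of DO, had 4 to 11 counts in each of the 6 libraries and was not tested.

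CIITA, the transactivator (chromosome 16, 10866222 to 10943021, plus strand), had a small fold change with wide error. It was read at 16.5, 24.8 and 16.6 CPM with DNAJC12 and 15.3, 16.5 and 14.8 CPM with the empty vector. Overexpression replicate 2 stood apart, while replicate 1 lay just below empty vector replicate 2. The log2 fold change was 0.31 ± 0.25 SE (adjusted p = 0.639, edgeR), and 0.09 without overexpression replicate 2. Other genes cover 23.4% of its exon bases, among them DEXI on the opposite strand, with 41 to 87 counts a library, so its values are uncertain.

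Ratios of counts within a library, which need no scaling between libraries, set the members whose CPM did not overlap between groups beside CIITA. HLA-DRB1, HLA-DMA and CTSS were left out, and how often such ratios stand apart over all genes was not computed. CD74 had 24.4, 28.97 and 31.5 counts per CIITA count with DNAJC12 and 20.8, 20.7 and 18.2 with the empty vector. HLA-DPB1 had 1.43, 1.62 and 1.86 per CIITA count with DNAJC12 and 0.961, 1.09 and 1.21 with the empty vector. The groups did not overlap for CD74, HLA-DPA1, HLA-DPB1 and HLA-DMB (exact permutation p = 0.1, adjusted 0.167). For HLA-DRA they did, at 9.15, 5.95 and 9.23 with DNAJC12 and 6.20, 5.57 and 5.33 with the empty vector (exact permutation p = 0.2, adjusted 0.286). None of the 10 ratios could pass at this sample number.

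CTSS, the cathepsin S gene (chromosome 1, 150730196 to 150765957, minus strand), was the one tested member with a fold change below 0. It had 23.5, 13.8 and 23.0 CPM with DNAJC12 and 27.8, 18.9 and 20.9 CPM with the empty vector. Overexpression replicate 2 was the lowest library and the groups overlapped. The log2 fold change was -0.16 ± 0.28 SE (adjusted p = 0.850, edgeR), with a value above 0 without overexpression replicate 2 (0.044) or empty vector replicate 1 (0.01).

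Levels between genes were compared in FPKM, which divides by gene length. That length counts all annotated exon bases of a gene, 1229 for HLA-DRB1 and 20757 for CIITA, so the order depends in part on the annotation. CD74 averaged 170 ± 50.9 FPKM with DNAJC12 and 96.6 ± 11.4 with the empty vector (SD, n = 3), and HLA-DRA 116 ± 1.50 and 68.8 ± 6.45. These levels lay above those of 97.5% and 96.4% of tested genes, by the mean over all 6 libraries. HLA-DMA (15.02 ± 4.52 with DNAJC12, 11.9 ± 1.81 with the empty vector), HLA-DPA1 (12.2 and 7.37) and HLA-DPB1 (11.2 and 6.01) came next, followed by HLA-DRB1 (8.26 and 4.97) and CTSS (4.69 and 5.30). HLA-DMB had 2.67 and 1.52 FPKM, and CIITA 0.920 and 0.744. With DNAJC12, libraries of HLA-DMA overlapped those of HLA-DPA1, as did each next pair down to CTSS, and CD74, HLA-DRA, HLA-DMB and CIITA stood clear of their neighbours. With the empty vector, HLA-DMA and HLA-DPA1 stood clear as well, and HLA-DPB1, CTSS and HLA-DRB1 overlapped.

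Replicate 2 departed from the other libraries of its group by amounts that differed between members. In overexpression replicate 2 the log2 gap to replicates 1 and 3, taken as a mean, was -0.76 for CTSS (39.5% GC), -0.04 for HLA-DRA (47.2%) and 0.15 for HLA-DPA1 (43.4%). It was 0.63 for CD74 (58.7%) and 1.01 for HLA-DRB1 (54.9%). In empty vector replicate 2 the gaps ran from -0.37 for CTSS to 0.44 for HLA-DRB1, with 0.16 for HLA-DPA1 and 0.08 for HLA-DRA. The size of the fold changes of HLA-DRB1, HLA-DMA, CIITA and CTSS moved with overexpression replicate 2, as their values without it show. Those of CD74 (0.82 with all 6 libraries, 0.58 without it), HLA-DPB1 (0.90 and 0.69) and HLA-DMB (0.82 and 0.67) moved too. HLA-DRA (0.76 and 0.78) and HLA-DPA1 (0.73 and 0.68) moved least.

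**Figure D2:**
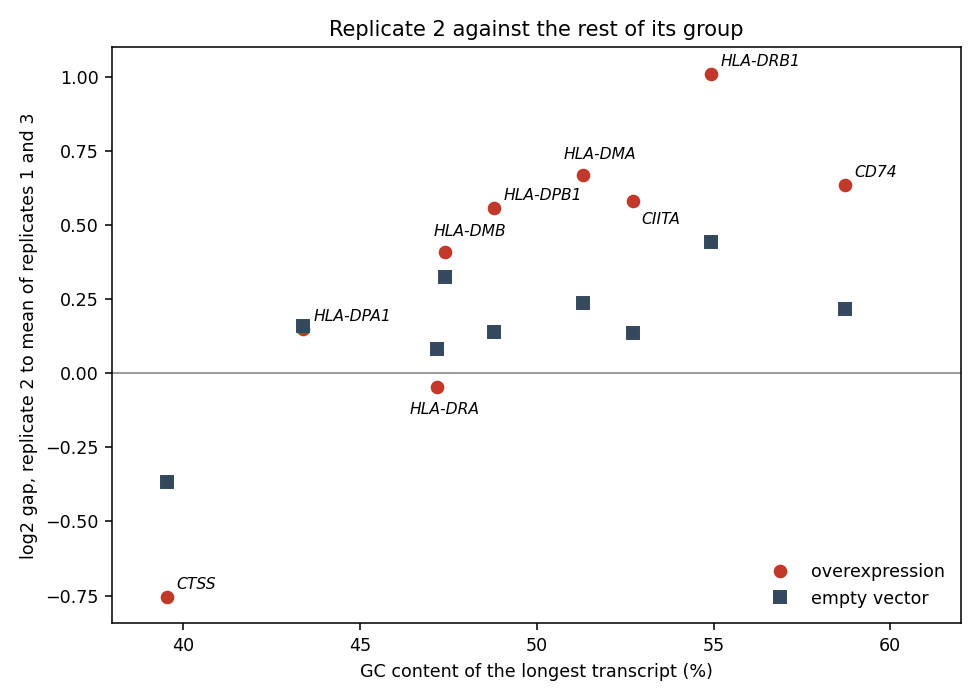
Log2 gap between replicate 2 and the mean of replicates 1 and 3 of its group, against the GC content (%) of the longest transcript, for the 9 tested members in overexpression (circles) and empty vector (squares) libraries. CTSS, lowest in GC content, has the gaps -0.76 and -0.37, and HLA-DRB1 the gaps 1.01 and 0.44.

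After a correction for GC content, CD74 (0.88 ± 0.11 SE, adjusted p = 0.00124), HLA-DRA (0.76 ± 0.11 SE, 0.00169), HLA-DPB1 (0.92 ± 0.20 SE, 0.0151) and HLA-DMB (0.82 ± 0.23 SE, 0.0388) passed the edgeR test. HLA-DRB1 (0.75, adjusted p = 0.0590) and HLA-DPA1 (0.72, adjusted p = 0.0745) did not. These 4 of 9 calls stand against 8.81% of all tested genes called higher in that fit. Without both libraries numbered 2, HLA-DPA1 passed with these 4, which makes 5 of 9, against 10.3% of tested genes called higher. Over these fits the log2 fold change of CD74 ran from 0.64 to 0.88 and that of HLA-DRA from 0.76 to 0.80. The error of HLA-DPA1 was 0.24 after the correction, against 0.20 without it, while those of the other 4 genes were smaller after it.

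**Figure D3:**
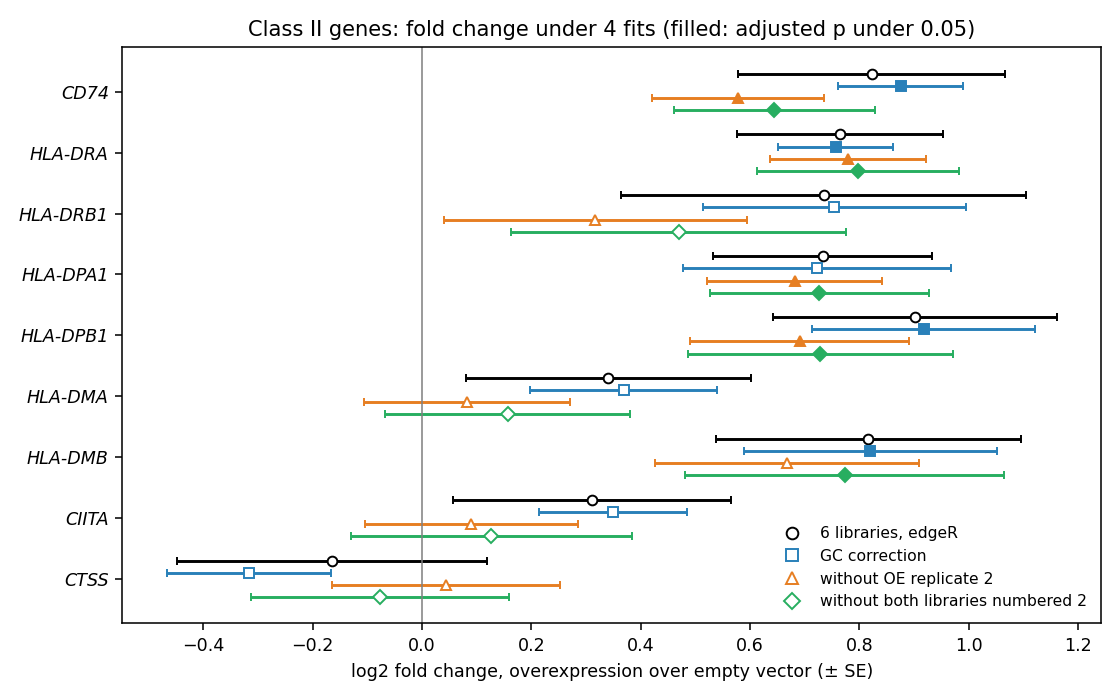
Log2 fold change (± SE), overexpression over empty vector, of the 9 tested members in the edgeR fit of all 6 libraries, after GC correction, without overexpression replicate 2 and without both libraries numbered 2; filled symbols have an adjusted p under 0.05. No symbol of the 6-library fit is filled, and CD74, HLA-DRA and HLA-DPB1 are filled in the other fits.

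The class II genes lie among other genes on chromosome 6, from 32439842 to 33087201, where 14 of 34 genes were tested. All 14 had a fold change above 0, as did 54.9% of all tested genes. The class II chains ran from 0.34 for HLA-DMA to 1.18 for HLA-DOA on the log2 scale. The peptide transporter genes TAP1 (0.12 ± 0.25 SE) and TAP2 (0.28 ± 0.19 SE) lay between or beside them. So did the immunoproteasome genes PSMB8 (0.18) and PSMB9 (0.22) and the bromodomain gene BRD2 (0.13). With all 6 libraries, each had a smaller value than any class II chain. Without overexpression replicate 2, HLA-DMA had 0.08, below TAP2 (0.30) and BRD2 (0.10). Without both libraries numbered 2, HLA-DMA (0.16) and HLA-DRB5 (0.14) lay below TAP2 (0.23). PSMB8-AS1, antisense to PSMB8, had 0.75 ± 0.29 SE. None of the 14 passed the test across all genes, and the difference between the class II chains and their neighbours was not tested.

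**Figure D4:**
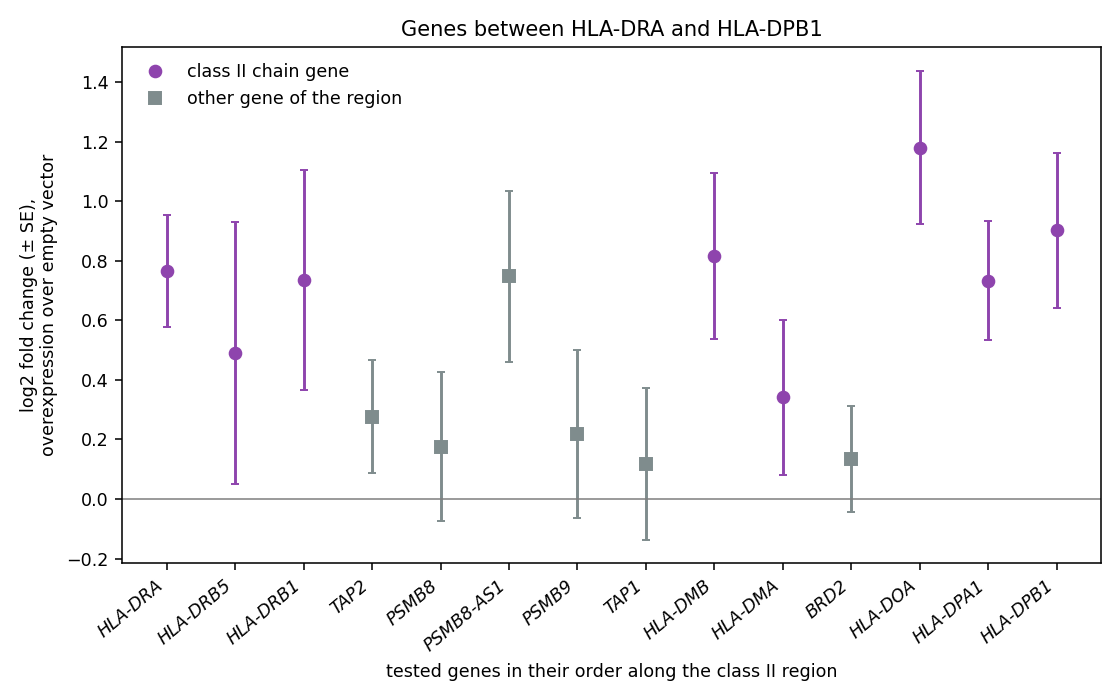
Log2 fold change (± SE), overexpression over empty vector, of the 14 tested genes from HLA-DRA to HLA-DPB1 in chromosomal order, class II chain genes as circles and other genes as squares. HLA-DOA has the highest value (1.18) and TAP1 the lowest (0.12).

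Other genes of the pathway gave no call either. Of 11 factors of the class II promoter complex, 0 passed, 8 had a log2 fold change above 0 and the median was 0.29. After GC correction the median was 0.04, against 0.01 over all tested genes. The remodeller SMARCA4 (-0.22 ± 0.23 SE) and the X box factor RFX5 (-0.23 ± 0.19 SE) had the highest mean CPM, which is not divided by gene length. RFX5 had 60.2, 62.4 and 53.7 CPM with DNAJC12 and 71.7, 69.8 and 65.9 CPM with the empty vector, so each overexpression library lay below all 3 of the empty vector, as in 10.8% of tested genes. The acetyltransferase gene CREBBP (0.66 ± 0.22 SE, adjusted p = 0.207, edgeR) and the RFX subunit RFXAP (1.27 ± 0.41 SE, adjusted p = 0.198, edgeR) had the largest values.

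Of 10 genes that carry the interferon gamma signal to CIITA, 0 passed and the median was 0.20. The groups overlapped for the kinase JAK1 (0.37 ± 0.28 SE), which had 116, 53.8 and 90.8 CPM with DNAJC12 and 76.5, 57.8 and 68.5 CPM with the empty vector. IRF1, an interferon-induced factor that binds the CIITA promoter, had 67.7, 105 and 75.7 CPM with DNAJC12 and 46.5, 59.3 and 56.9 CPM with the empty vector (log2 fold change 0.61 ± 0.23 SE, adjusted p = 0.272, edgeR). USF1, another factor of the CIITA promoter, had 34.9, 54.4 and 40.2 CPM with DNAJC12 and 59.2, 64.4 and 62.9 CPM with the empty vector (log2 fold change -0.53 ± 0.22 SE, adjusted p = 0.332, edgeR). The groups did not overlap for IRF1, higher with DNAJC12, or for USF1, lower with it. Each was 1 of 10 genes, against 9.26% of tested genes that stood apart as higher and 10.8% as lower.

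Of 13 tested endolysosomal proteases and their inhibitors, 0 passed and the median was 0.00. Cathepsin B (CTSB, 0.00 ± 0.22 SE) and the cystatin CST3 (-0.09 ± 0.27 SE) had the highest mean CPM. SPPL2A, the protease that clears the last membrane remnant of the invariant chain, had 40.3, 19.0 and 34.6 CPM with DNAJC12 and 17.3, 16.9 and 17.4 CPM with the empty vector. Its log2 fold change was 0.86 ± 0.29 SE, with an adjusted p of 0.216 in the edgeR test. Of 4 tested partners of CD74 and regulators of class II at the surface, 0 passed. CD44, the signalling partner of CD74, had -0.10 ± 0.18 SE and MARCH8, a ubiquitin ligase that removes class II, 0.27 ± 0.20 SE. CD83, which protects class II from that ligase family, had 11.7, 9.74 and 10.1 CPM with DNAJC12 and 23.2, 19.8 and 18.9 CPM with the empty vector. Its log2 fold change was -0.97 ± 0.24 SE, with an adjusted p of 0.0915 in the edgeR test. Without overexpression replicate 2, edgeR called CD83 (adjusted p = 0.00995) and SPPL2A (adjusted p = 0.00150). They were among 8 of 40 pathway genes called in that fit, 6 higher and 2 lower.

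Most markers of blood and antigen-presenting cells were at or near 0. Of 16 markers, 2 had enough counts to be tested, and 0 of them passed. Their summed level ran from 9.52 to 21.4 CPM in overexpression libraries and from 15.5 to 18.5 CPM in empty vector libraries. MS4A1 and CD3E had 0 counts in all 6 libraries, and PTPRC had 2, 1 and 0 counts with DNAJC12 and 0 in each empty vector library. CD14 (log2 fold change 0.32 ± 0.36 SE) and CSF1R (-0.62 ± 0.33 SE) made up most of the sum.

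The genes with the most similar pattern over the 6 libraries were taken among protein-coding genes at or above a mean of 5 CPM, by the root mean square distance of log2 CPM centred on each gene's mean. For CD74 they were FBXW4 (distance 0.05), MICALL1 (0.07) and SLC35F6 (0.08), of 7331 candidates. FBXW4 had 55.1, 97.0 and 66.7 CPM with DNAJC12 and 40.1, 45.7 and 37.2 CPM with the empty vector. For HLA-DRA they were MAT2A (0.06), FN1 (0.07) and TCF7L2 (0.07), of 8179 candidates. FN1, the fibronectin gene, had 473, 499 and 456 CPM with DNAJC12 and 284, 308 and 251 CPM with the empty vector. No other class II gene was among these 3 nearest genes of either member.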

How the data were processed

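The authors deposited raw counts of reads per gene and FPKM for 58735 genes. Alignment used HISAT2 2.0.5 and hg19, per the submitters' processing notes. All 58735 gene identifiers and coordinates equal GENCODE 29 on GRCh38, which is used here. The counting program, its strand setting and its handling of reads in overlapping genes are not given by the sources used. Each deposited FPKM equals the count per gene length and per 1 depth a library, 0.854 to 1.10 times its total count.

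Groups were compared on the counts with the edgeR 4.0.16 quasi-likelihood test (R 4.3.3, TMM, filterByExpr with minimum count 10 and minimum total 15, robust dispersions). P-values were adjusted by Benjamini-Hochberg over 14520 genes, with a threshold of 0.05. Genes not tested held 0.129% of counts. Alternatives were DESeq2 1.42.0 (size factors, Wald test), other filters, a replicate block, leaving out libraries, library sizes without DNAJC12, a loess GC correction (span 0.3) and limma 3.58.1 on log2 FPKM with pseudocounts 1 and 0.1 (filter 0.5 FPKM in 3 libraries, or none). A pseudocount understates changes of low genes. Log2 CPM used a prior count of 2. Steps were tested on simulated data. Ratios used scipy 1.17.1 and figures matplotlib 3.10.9.

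Members, lists and alternatives were chosen with earlier results of these data known. Named genes are DNAJC12, all members, up to 4 called genes of each list or else its 2 most abundant, and the 3 nearest patterns. Candidates for those also had an SD of log2 CPM of at least 0.5 times that of the member. CREBBP, RFXAP, IRF1, USF1, SPPL2A, CD83, MIF, DDT, CD68, IFI30, further marker genes and the genes of the class II region were named after their values were seen. Some genes that met the rule are not reported here.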

Additional observations from a re-analysis of the deposited data

How the results depend on the processing

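Over the 17 alternatives, each tested member other than CTSS had a positive log2 fold change throughout. When 1 library was left out, CTSS ran from -0.30 to 0.044, with values above 0 in the fits lacking overexpression replicate 2 (0.044) or empty vector replicate 1 (0.01). The number of members called, 0 with all 6 libraries, was 1 with no filter (CD74), 2 by DESeq2 (HLA-DRA and HLA-DPB1), 5 without both libraries numbered 2 and 4 after GC correction. It ran from 0 to 4 when 1 library was left out. It was 1 without overexpression replicate 1 (CD74), 4 without replicate 2 (CD74, HLA-DRA, HLA-DPA1 and HLA-DPB1) and 0 in the other 4 such fits. Over all genes 181 of 14520 were called with all 6 libraries, 565 of 14520 by DESeq2 and 2506 of 14520 after GC correction. It was 2754 of 14737 without both libraries numbered 2. With no filter it was 688 of 27310 by edgeR and 12 of 27310 by limma on FPKM. Leaving out 1 library gave 25 to 3366, the highest without overexpression replicate 2, of 14974 tested genes. The lowest came without overexpression replicate 3 or empty vector replicate 1, with 41 and 27 without empty vector replicates 2 and 3. Of 40 tested pathway genes outside the members, 0 were called with all 6 libraries, 2 by DESeq2 and 11 after GC correction. It was 7 of 40 without both libraries numbered 2 and 1 of 52 with no filter. When 1 library was left out, 0 to 8 were called, with 8 of 40 without overexpression replicate 2. The cause of these shifts was not tested.

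Same-numbered libraries correlated at 0.448, 0.585 and 0.0335 in their deviations from the group means, and overexpression replicate 3 correlated best with empty vector replicate 1, so the numbers were not taken as pairs. With the replicate number as a block, 1937 of 14520 genes, 5 of 9 members and 7 of 40 pathway genes were called. HLA-DRB1 and HLA-DMB, with fewer counts, had larger errors (0.37 and 0.28) than HLA-DRA (0.19). So did CD74 (0.24), the member with the most counts, so error did not follow counts alone.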

Other observations

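Several genes of the class II pathway and the marker lists had almost no counts where another gene covers their exons. MIF, the cytokine that binds CD74, had 3, 2 and 3 counts with DNAJC12 and 4, 7 and 7 counts with the empty vector, and MIF-AS1 covers 61.9% of its exon bases. Its relative DDT had 2, 2 and 2 counts with DNAJC12 and 0, 3 and 9 with the empty vector, with 37.8% of exon bases shared. IFI30, the lysosomal thiol reductase, had 1, 1 and 1 counts with DNAJC12 and 3, 0 and 2 with the empty vector, with 40.2% shared. The lysosomal glycoprotein gene CD68 had 0, 0 and 1 counts with DNAJC12 and 0, 2 and 1 with the empty vector, with 85.8% shared. CTSD, by contrast, shares 52.7% of its exon bases and had 9030, 15099 and 12059 counts with DNAJC12 and 8421, 10504 and 9686 with the empty vector. Whether reads in shared exons were left out of the deposited counts was not tested.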
